A study of Mus musculus with 4 samples.

Results

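The cells described here are the high-mitochondrial barcodes of a single-cell RNA-seq study of mouse islets. They were selected on measured values, as barcodes with at least 200 detected genes and with more than 12% of their UMIs (unique molecular identifiers, 1 per captured transcript) from the 13 genes with symbols starting mt-. They numbered 1739 of the 10766 barcodes with at least 200 genes (16.2%, exact 95% binomial interval 15.5 to 16.9), out of 12571 barcodes in all. The other 9027 barcodes, at 12% or less in the same libraries, served for comparison. Islets of adult male C57BL6/J mice were pooled and then divided into 4 samples, each of which gave 1 library: untreated islets, and islets exposed ex vivo for 6 h to IL-1β alone, to IFN-γ alone or to both cytokines. Where 4 values follow each other without labels, they stand for these libraries in that order. The libraries held between 20056630 (IL-1β) and 50731370 (untreated) UMIs. No library had a replicate, so levels of the conditions were described and not tested against each other. The exception is a test of whether the difference between the 2 sets of barcodes varied with a cytokine. Because the 4 libraries came from 1 pool of islets, the spread between them is not a spread between animals. Of the barcode sequences, 16 occurred in 2 libraries and 0 in more, and 3 high-mitochondrial barcodes were among them.

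The mitochondrial genome encodes core subunits of the respiratory chain and of ATP synthase, and its mRNAs are polyadenylated inside the organelle, so that 3′ libraries capture them along with cytoplasmic mRNAs. All other proteins of mitochondria are encoded in the nucleus, translated on cytosolic ribosomes and imported. A high mitochondrial share of UMIs is widely used to set aside cells from single-cell data before clustering. β-Cells carry many mitochondria, since glucose metabolism drives insulin secretion, and IL-1β acts on islet cells through NF-κB, and IFN-γ through JAK kinases.

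High-mitochondrial barcodes made up 22.9% of the untreated library (interval 21.4 to 24.5, 703 barcodes), 12.9% of the IL-1β library (11.6 to 14.3, 320 barcodes), 15.9% of the IFN-γ library (14.6 to 17.3, 468 barcodes) and 10.9% of the library with both cytokines (9.63 to 12.2, 248 barcodes). Among barcodes with at least 200 genes the share was thus highest without cytokines. Barcodes with fewer genes and more than 12% mitochondrial UMIs numbered 417, 422, 758 and 199 in the 4 libraries. They are left out of these shares, and the order of the libraries can differ with them counted. The intervals of the shares and those that follow cover counting error only, and the part of handling and depth in the differences between libraries was not tested. The median mitochondrial share of these barcodes was 46.6%, 22.0%, 22.1% and 44.3% in the 4 libraries. It was 4.66%, 5.93%, 5.86% and 5.11% in the other barcodes. More than 25% mitochondrial UMIs were found in 1058 of the 1739 barcodes, which were 72.7%, 45.3%, 47.4% and 72.6% of those of the 4 libraries.

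The high share came with few UMIs from all other genes and not with a large excess of mitochondrial UMIs. The median number of non-mitochondrial UMIs was 1095 in the untreated high-mitochondrial barcodes against 18166.5 in the others. It was 2209.5 against 7178 with IL-1β, 3175.5 against 9732 with IFN-γ and 714 against 11213 with both cytokines. The other barcodes therefore held 16.6-, 3.25-, 3.06- and 15.7-fold more non-mitochondrial UMIs. Median mitochondrial UMIs were 1221 against 930, 747.5 against 481, 1007.5 against 658 and 731 against 605, or 1.31-, 1.55-, 1.53- and 1.21-fold more in the high-mitochondrial barcodes. Both quantities entered the choice of the barcodes, so these values are a description. Median detected genes were 585, 1097.5, 1230 and 486, against 3749.5, 2493, 2996 and 2887.5 in the others.

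**Figure D1:**
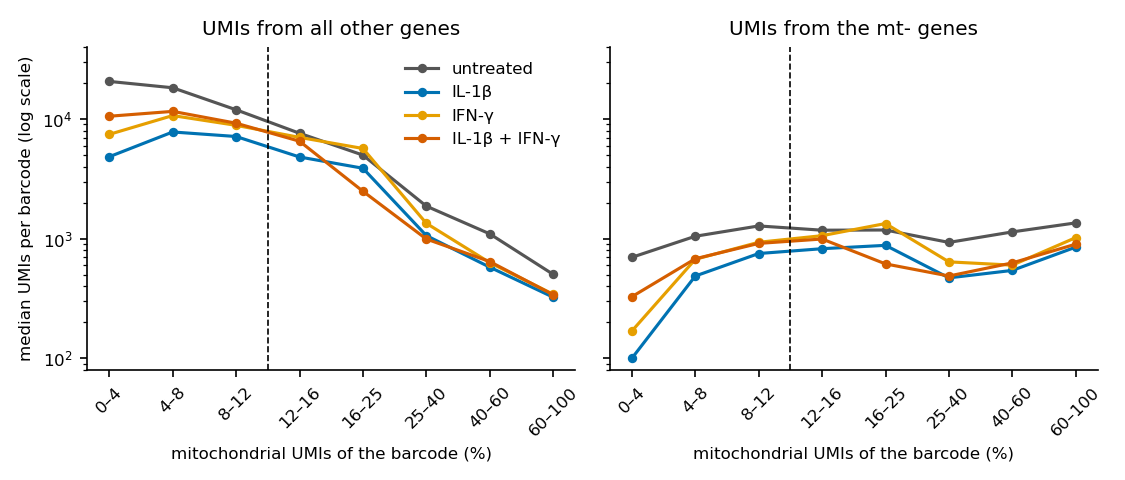
Median UMIs per barcode (log scale) from all genes except the mt- genes (left) and from the mt- genes (right), in ranges of the mitochondrial share of a barcode, with 1 line per library and the 12% limit dashed. In the untreated library the left line falls from 20624 below 4% to 503 above 60%, whereas the right line stays between 698 and 1354.

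Values beside the 12% limit differed by library. Just outside the limit, at 11 to 12%, the 39 untreated barcodes had a median of 10348 non-mitochondrial UMIs, and just inside, at 12 to 13%, the 26 untreated barcodes had 8212.5. The corresponding medians were 6122 and 6370 with IL-1β, 8511 and 7042 with IFN-γ and 7990 and 7496 with both. Median detected genes were 3058 just outside and 1669.5 just inside in the untreated library, against 2289 and 2350, 2806 and 2548, and 2429 and 2616.5 in the other 3. Between the wider ranges of 16 to 25% and 25 to 40%, the median went from 4994.5 to 1870 in the untreated library, from 3877.5 to 1061 with IL-1β, from 5672.5 to 1343.5 with IFN-γ and from 2489.5 to 993 with both. Between the same ranges the median of mitochondrial UMIs went from 1181 to 930, from 879 to 470, from 1337.5 to 639.5 and from 615 to 487 in the 4 libraries. The ranges are set by the ratio of the 2 quantities, so a larger fall of the non-mitochondrial UMIs is part of their definition.

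Cytochrome c oxidase and ATP synthase transcripts led the mitochondrial UMIs in both sets. Of the mitochondrial UMIs of the untreated high-mitochondrial barcodes, 23.6% were from mt-Co3, 18.5% from mt-Atp6, 17.6% from mt-Co2 and 13.7% from mt-Co1, and 4.41% from mt-Nd1, a subunit of complex I. In the other untreated barcodes these shares were 22.0%, 17.2%, 17.2%, 16.5% and 4.55%. The share of mt-Co1 was lower in high-mitochondrial barcodes in all 4 libraries (17.1% against 18.2% with IL-1β, 16.04% against 17.3% with IFN-γ, 17.1% against 19.4% with both). The shares of mt-Co2, mt-Co3, mt-Atp6 and mt-Nd2 were higher in all 4 libraries, by means of 0.35, 0.82, 0.92 and 0.37 percentage points. Small parts came from mt-Cytb (8.85% in untreated high-mitochondrial barcodes), mt-Nd4 (5.61%), mt-Nd2 (4.88%), mt-Nd3 (1.61%), mt-Nd5 (0.74%), mt-Nd4l (0.28%), mt-Nd6 (0.09%) and mt-Atp8 (0.06%). All of these UMIs chose the barcodes, so no test was made on them.

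Most high-mitochondrial barcodes were led by insulin. A barcode was put in an endocrine class by its leading hormone where hormone UMIs (Ins1 and Ins2, Gcg, Sst, Ppy) made up at least 5% of its non-mitochondrial UMIs. In the untreated library 82.6% of the high-mitochondrial and 80.1% of the other barcodes were insulin-led. These shares were 62.2% and 56.4% with IL-1β, 65.6% and 58.6% with IFN-γ, and 47.98% and 70.3% with both. The odds of being insulin-led were thus higher in 3 libraries and lower in 1, with a mean log2 odds ratio of -0.09 (exact sign-flip permutation over 4 libraries, two-sided p = 1). With 4 libraries this test allows no p below 1 in 8, so it could not pass a threshold of 0.05 with any values. Of the high-mitochondrial barcodes 174 (10.0%) lay within 1 percentage point of the 5% cut, at hormone shares of 4 to 6%, against 184 (2.04%) of the others. With at least 2000 non-mitochondrial UMIs required of every barcode, the mean log2 odds ratio was 0.86 and positive in all 4 libraries, which gives the smallest p of this test, and with a hormone cut of 2% it was 0.72. It was -0.99 with a hormone cut of 10% and -0.52 with a mitochondrial limit of 20%, each positive in 1 library, so that its sign depends on these choices.

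The share of barcodes past the limit was set out by class, with no test of the differences. Over the 4 libraries, 16.8% of insulin-led barcodes (1206, against 5989 others) were high-mitochondrial, compared with 7.25% of glucagon-led (74), 5.79% of somatostatin-led (15) and 6.70% of pancreatic polypeptide-led barcodes (14). The insulin-led share was above the glucagon-led one in all 4 libraries, at 23.5% against 13.01%, 14.0% against 3.91%, 17.5% against 8.86% and 7.69% against 6.88%. With both cytokines the intervals of the insulin-led (6.41 to 9.13), glucagon-led (3.71 to 11.5) and pancreatic polypeptide-led share (7.41%, 2.06 to 17.9) overlapped, and in the untreated library barcodes of mixed hormones were at 22.4% (15.8 to 30.1). Of the non-endocrine classes, acinar barcodes were at 17.3% (9.57 to 27.8; 46.7% of 15 in the untreated library), ductal at 12.4% (8.05 to 18.1) and mesenchymal at 10.9% (5.95 to 17.96). Of the barcodes with endothelial markers, 1 was high-mitochondrial and 179 were not (0.56%, interval 0.01 to 3.06), and of those with macrophage markers, 1 was and 147 were not (0.68%, 0.02 to 3.71). A further 297 high-mitochondrial barcodes, with medians of 411 to 848 non-mitochondrial UMIs by library, could be put in no class. The part of depth in the shares of classes called from at least 3 markers was not tested.

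**Figure D2:**
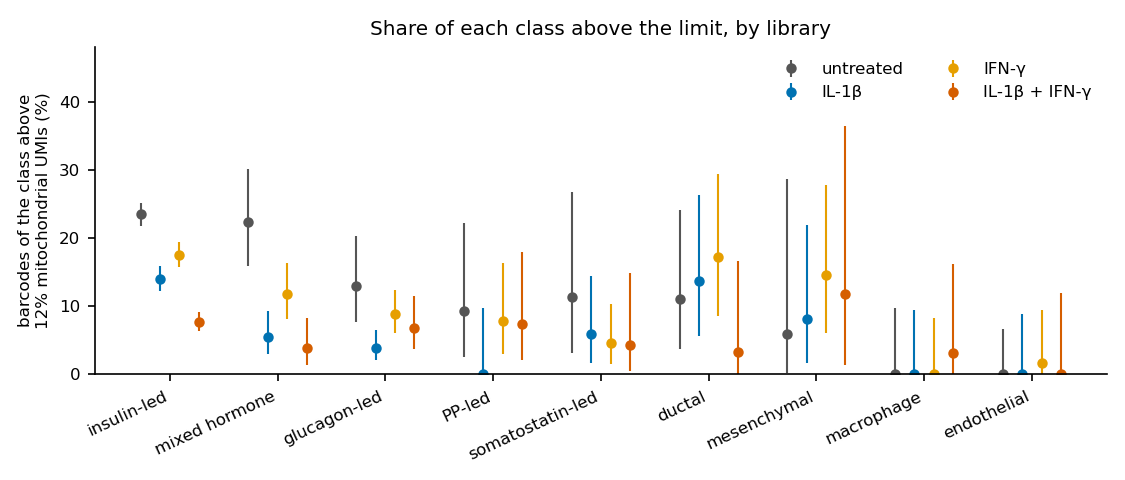
Percent of the barcodes of each class that had more than 12% mitochondrial UMIs, by library, with exact 95% binomial intervals; classes are by leading hormone or by non-endocrine markers. Insulin-led barcodes lie above glucagon-led barcodes in each library, and endothelial and macrophage barcodes lie at 0 to 3.12%.

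Summed over all high-mitochondrial barcodes, endothelial markers were scarce per UMI as well as per barcode. The 9 endothelial markers together stood at 11.6, 8.31, 26.3 and 13.2 UMIs per 1000000 non-mitochondrial UMIs (CPM) in the 4 libraries, against 187, 175, 177 and 116 in the others. Flt1, a VEGF receptor, was the most abundant endothelial marker in the other barcodes and Esam, an adhesion molecule, in the high-mitochondrial ones. The 11 macrophage markers stood at 71.2, 37.4, 40.8 and 191 CPM against 292, 307, 383 and 487, with C1qa, a complement subunit, in the lead throughout. They stood at 50.5, 40.4, 33.8 and 448 CPM above 25% mitochondrial UMIs. With both cytokines the interval there (336 to 586) held the 487 CPM of the others. That level rests on 53 UMIs, and 1 high-mitochondrial barcode of that library was classed as macrophage. The interval takes UMIs as independent and does not allow for many UMIs from few barcodes. The 7 mesenchymal markers were lower in 3 libraries and higher with both cytokines (10.5, 124.6, 102 and 272 CPM against 89.3, 282, 298 and 43.5), and the 8 acinar enzymes had no common direction (1616, 198, 1726 and 1030 CPM against 1033, 910, 1400 and 1067). Above 25% mitochondrial UMIs, the acinar enzymes, led by Ctrb1 (chymotrypsinogen), stood at 3496, 1098, 8146 and 3854 CPM and were above the barcodes at 12% or less in all 4 libraries. The mesenchymal markers stood at 23.4, 702, 850 and 972 CPM there, below those barcodes in the untreated library and above them in the other 3, led by Col1a1, a collagen chain, in the treated libraries. These mesenchymal levels rest on 13, 87, 176 and 115 UMIs. In the 4 libraries 1, 3, 7 and 2 high-mitochondrial barcodes were classed as mesenchymal, so few barcodes can set the levels. The 5 erythroid markers were at 0 in all high-mitochondrial barcodes.

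Insulin transcripts were found in each of the non-endocrine classes examined (endothelial, macrophage, mesenchymal and ductal), which limits how far a hormone share names a cell. The median insulin share of non-mitochondrial UMIs was 0.09 to 0.45% in endothelial and macrophage barcodes at 12% or less, by library, and 1.54 to 3.48% in the unassigned high-mitochondrial barcodes. In insulin-led high-mitochondrial barcodes it was 19.8%, 17.3%, 18.5% and 15.4%, against 42.9%, 21.8%, 29.1% and 32.7% in the other insulin-led barcodes. Insulin entered the class rule, so this is again a description.

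To compare transcripts without the mitochondrial UMIs, UMIs of insulin-led barcodes were summed per library and set, and the mt- genes were left out of the totals and of the test. The high-mitochondrial sums held 1532116 (581 untreated barcodes), 747064 (199, IL-1β), 1405860 (307, IFN-γ) and 300020 (119, both) non-mitochondrial UMIs. Of 11207 genes tested by edgeR with the library as a block, 724 were higher (6.46%) and 908 lower (8.10%) in high-mitochondrial barcodes at an adjusted p under 0.05. These counts rest strongly on the library with both cytokines, without which 96 (0.854%) and 69 (0.614%) genes were called, and on the untreated library, without which 256 (2.28%) and 424 (3.78%) were called. They also depend on the scaling: with totals in place of TMM factors the median log2 fold change of all genes moved from -0.01 to 0.20, and 1784 genes (15.9%) were higher and 215 (1.92%) lower. Of the 11207 genes 14.6% were called in either direction. Of 58 called genes given by the naming rule, 23 were still called without the library with both cytokines (3 could not be tested), 48 without the untreated library, 52 without IL-1β (1 could not be tested) and 54 without IFN-γ, and 0 of those tested changed sign. Acinar transcripts moved with the contrast: 7 of the 8 acinar markers were called higher in these insulin-led sums, Ctrb1 by 1.40 on the log2 scale, but not in every library. Ctrb1 stood at 309, 6.69, 41.97 and 697 CPM against 23.6, 6.81, 96.1 and 146, higher in the untreated library and with both cytokines and lower with IFN-γ. The part of acinar transcripts in the other differences was not tested. Fold changes below are from the TMM fit and CPM values are per summed non-mitochondrial UMIs, so a gene level in CPM can shift less or more than its fold change. Counts of list genes in other fits are read beside the shares of all genes called in the same fits. Above 25% mitochondrial UMIs those shares were 10.9% higher and 16.9% lower.

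Long non-coding RNAs that stay in the nucleus were higher in high-mitochondrial barcodes. All 6 tested RNAs of a list of 9 rose, beside 6.46% of all genes, with a median log2 fold change of 0.89 (1.13 without TMM; 0.58 and 5 called with at least 2000 UMIs per barcode). Malat1 (chromosome 19, 5795690 to 5802672, mm10), which resides in nuclear speckles, stood at 32670, 21150, 17550 and 27400 CPM in the high-mitochondrial sums, and at 8163, 14260, 12600 and 10980 in the others. The 2 sets did not overlap, and the log2 fold change was 0.85 ± 0.26 (SE, 4 libraries, adjusted p = 0.0201). Its fold change stayed positive but its call was lost with DESeq2 (adjusted p = 0.254), above 25% mitochondrial UMIs (0.0966), with at least 2000 UMIs per barcode (0.0513), and without the untreated (log2 fold change 0.53, 0.059), IL-1β (0.0852) or combined library (0.187). Neat1 (chromosome 19, 5824708 to 5845478), the scaffold of paraspeckles, stood at 1300, 1459, 985 and 2090 CPM against 400, 847, 637 and 771 (0.90 ± 0.18, adjusted p = 0.000556). Meg3, an imprinted RNA expressed in β-cells, stood at 3468, 1270, 1647 and 2387 CPM against 961, 827, 999 and 870 (0.92 ± 0.19, adjusted p = 0.000878). Meg3 and Neat1 were each higher in every library without overlap of the sets. Kcnq1ot1, an imprinted antisense RNA, and Mirg rose by log2 fold changes of 0.89 and 1.10 (0.66 for Mirg without the untreated library). Mirg was higher in 3 libraries and stood at 16.1 against 16.9 CPM with IL-1β. Without the library with both cytokines 1 of the 6 was still called, at a median of 0.84.

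Transcripts of cytosolic ribosomal proteins were lower. Of 80 tested, 65 fell (81.2%, beside 8.10% of all genes) and 0 rose, with a median log2 fold change of -0.57 (-0.34 without TMM, with 15 called lower). Rpl15 stood at 399, 803, 881 and 733 CPM against 906, 1077, 1069 and 962 in the others, and was lower in every library (-0.80 ± 0.17, adjusted p = 0.00128). Rpl19 stood at 1008, 1660, 1884 and 1710 CPM against 1867, 1925, 2017 and 2090 (-0.61 ± 0.18, adjusted p = 0.0168). For both genes the largest gap was in the untreated library. Rpl22l1 fell by 0.82 on the log2 scale, whereas Rpl13, Rps24 and Rpl41 did not pass the test (adjusted p = 0.0665, 0.115 and 0.218), although DESeq2 called Rpl13 lower (-0.45, adjusted p = 0.0235). Without the library with both cytokines the median was -0.55 with 0 of 80 called. Ribosomal protein genes have many processed pseudogenes, and reads divided among them by the authors' counting would be uncertain.

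Nuclear-encoded subunits of the respiratory chain fell too, in barcodes chosen for their mitochondrially encoded partners. Of 77 tested, 51 were lower (66.2%, beside 8.10% of all genes) and 0 higher, with a median of -0.52 (-0.30 without TMM, with 11 called lower; -0.49 and 2 called lower without the library with both cytokines). Uqcrfs1, the Rieske protein of complex III, stood at 45.7, 83.0, 94.6 and 93.3 CPM against 107, 142, 124 and 118 (-0.92 ± 0.16, adjusted p = 0.00012). Uqcrb, of the same complex, stood at 101, 298, 238 and 143 CPM against 218, 368, 288 and 266 (-0.84 ± 0.16, adjusted p = 0.000427). Both were lower in all 4 libraries. Of the cytochrome c oxidase subunits, Cox8a, Cox7a2l and Cox6c fell by 0.60, 0.58 and 0.54 on the log2 scale, and Cox4i1 did not pass the test (-0.36, adjusted p = 0.112). The calls of Cox7a2l and Cox6c were lost without the untreated library (-0.39 and -0.38, adjusted p = 0.0584 and 0.07).

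Genes of mitochondrial maintenance were divided, with 4 higher (10.3%, beside 6.46% of all genes) and 6 lower (15.4%, beside 8.10%) of 39 tested and a median of -0.02. Without the untreated library 0 were higher and 3 lower, and without that with both cytokines 1 and 1. Those that fell were carriers, pores and import or fission proteins of the organelle: the adenine nucleotide translocases Slc25a4 (-0.78 ± 0.16, adjusted p = 0.000898) and Slc25a5 (-0.55), the channels Vdac2 (-0.71) and Vdac3, the import receptor Tomm20 (-0.55) and Fis1. Park2, the ubiquitin ligase parkin of mitophagy, rose from 10.2, 13.7, 16.9 and 13.7 CPM in the other barcodes to 32.0, 24.1, 29.2 and 20 CPM (0.85 ± 0.21, adjusted p = 0.00415). Its call was lost without the untreated library (0.54, adjusted p = 0.132) and at 12 to 25% mitochondrial UMIs (0.46, adjusted p = 0.226), and that of Slc25a5 without the untreated library (-0.30, adjusted p = 0.153). The 3 other genes that rose were Nrf1, Timm44 and Mterf3.

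**Figure D3:**
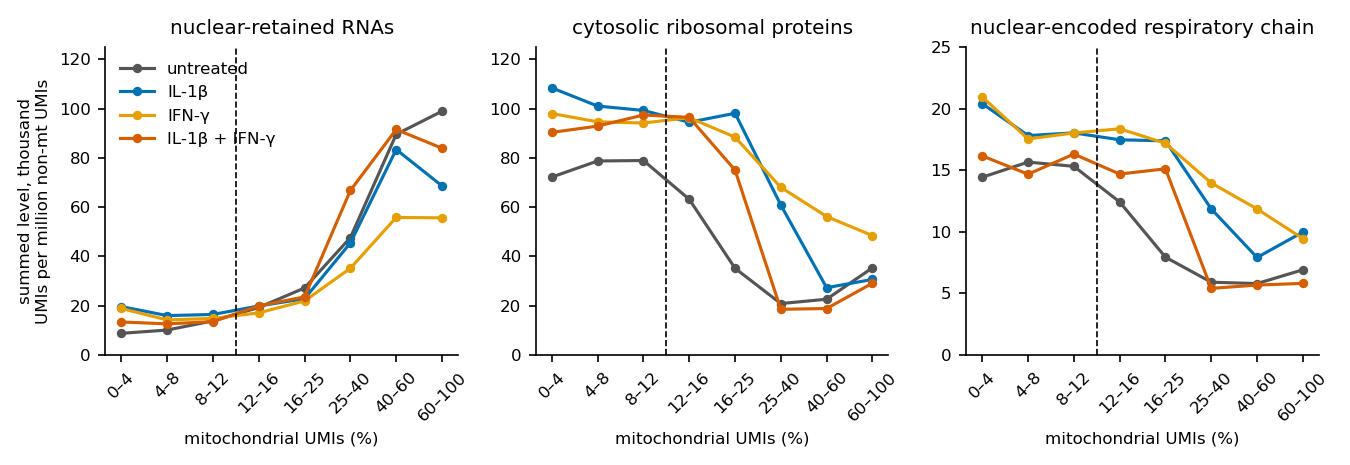
Summed level of nuclear-retained RNAs, cytosolic ribosomal protein mRNAs and nuclear-encoded respiratory chain mRNAs in insulin-led barcodes, in UMIs per non-mitochondrial UMI total (CPM, axis divided by 1000), by range of mitochondrial share, with 1 line per library and the 12% limit dashed. In the untreated library ribosomal protein mRNAs fall from 78904 CPM at 8 to 12% to 20826 CPM at 25 to 40% and stand at 35338 CPM above 60%, and nuclear-retained RNAs reach 98914 CPM above 60%.

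The medians of these lists lay farther from 0 above 25% than at 12 to 25%. When the high-mitochondrial insulin-led barcodes were divided at 25%, the 510 barcodes at 12 to 25% gave 214 higher (1.93%) and 430 lower genes (3.88%), and the 696 above 25% gave 1186 (10.9%) and 1836 (16.9%). Above 25%, 80 of 80 ribosomal protein genes and 73 of 77 respiratory chain genes were lower, with medians of -1.93 and -1.63, against -0.15 for all genes tested. At 12 to 25% the medians were -0.36 and -0.34. In the untreated library the summed ribosomal protein level was 78904 CPM at 8 to 12%, 35152 at 16 to 25%, 20826 at 25 to 40%, 22585 at 40 to 60% and 35338 above 60%, the last value being above the 2 before it. With both cytokines it was 18492, 18822 and 29090 CPM in the last 3 ranges, and with IFN-γ it went on falling, from 68010 to 56163 and 48425 CPM. In the IL-1β library it was 99229 at 8 to 12%, 98102 at 16 to 25% and 60822 at 25 to 40%. With IFN-γ it was 94132, 88410 and 68010 CPM in the same ranges. In each of these libraries most of the fall thus came at a higher mitochondrial share than in the untreated library. The summed nuclear-retained RNAs rose from 13801 CPM at 8 to 12% to 98914 above 60% in the untreated library, and from 13488 to 83909 with both cytokines. Most UMIs of the sums came from the barcodes at 12 to 25% (1065788 of 1532116 in the untreated library), and the fit over all high-mitochondrial barcodes is weighted towards them.

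**Figure D4:**
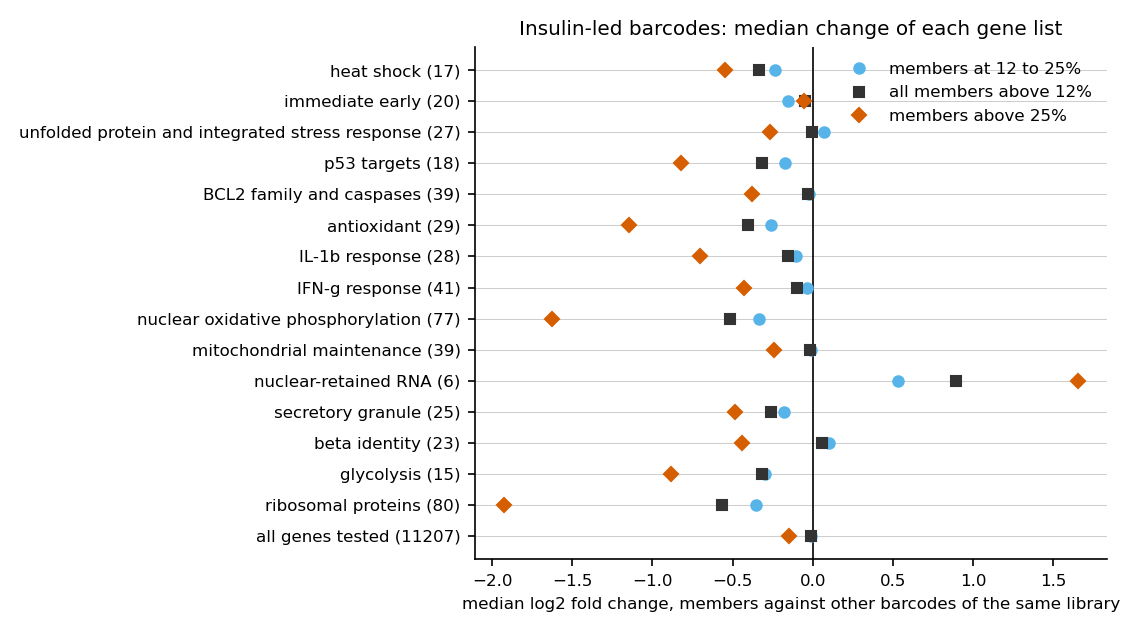
Median log2 fold change of each gene list between high-mitochondrial and other insulin-led barcodes, for barcodes at 12 to 25% (circles), all above 12% (squares) and those above 25% (diamonds); numbers in brackets are genes tested in the fit of all barcodes above 12%. The ribosomal protein list is at -1.93 and the nuclear-retained list at 1.66 above 25%.

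Genes called higher were longer than those called lower. The median summed exon length in the GENCODE M21 annotation was 7628 bp for higher, 2264 bp for lower and 4537 bp for all tested genes. Long non-coding RNAs were 6.63% of the higher, 1.32% of the lower and 3.57% of the tested genes. Of the genes that rose most in every library at a mean of at least 20 CPM, Lars2, the mitochondrial leucyl-tRNA synthetase, stood at 264, 41.5, 59.8 and 86.7 CPM against 54.2, 24.5, 29.7 and 25.8 (1.32 ± 0.18, adjusted p = 1.37e-06; 0.87 without the untreated library). Grik5, a kainate receptor subunit, stood at 47.0, 20.1, 21.3 and 43.3 CPM against 13.9, 6.03, 11.6 and 7.61 (1.41 ± 0.22, adjusted p = 1.68e-05). The sets of Grik5 did not overlap, and Lars2 was higher within each library. Counts per gene do not show which part of Lars2 its reads matched, so its values are of reads assigned to the gene. The others of the 10 were Gipr, the receptor of the incretin GIP (1.14), Wdfy1 (1.14), Pcdhga12 (1.11), Inha, the inhibin α chain (1.10), Insrr, the insulin receptor-related receptor (1.07), Rgs11 (1.07), Oas2, an interferon-induced antiviral enzyme (1.06), and Eml5 (1.06). Without the untreated library Gipr and Rgs11 were at 0.71 and 0.67, and the calls of Oas2 and Pcdhga12 were lost without the library with both cytokines (adjusted p = 0.16 and 0.0576). Pcdhga12 shares its last exons with the other γ-protocadherins, so its 3′ reads are uncertain.

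The 10 genes that fell most included hormones of other islet cells. Sst fell by 1.97 on the log2 scale (-1.26 without the IL-1β library, and not called without that with both cytokines, adjusted p = 0.0529, or with DESeq2, adjusted p = 0.13), Gcg by 1.79, Pyy by 1.78 and Ppy by 1.27, and Rbp4, a retinol carrier and marker of δ-cells, by 1.75. Sst, Gcg and Ppy entered the class rule, and those of Sst and Ppy depend on barcodes with many genes. With barcodes limited to 4000 genes Sst and Ppy were not called (log2 fold changes 0.16 and -0.37, adjusted p = 0.881 and 0.265), and Gcg, Pyy and Rbp4 stood at -1.11, -0.89 and -0.86. The largest fall of the 10 was that of Ccl2, a chemokine that draws monocytes, which stood at 0, 21.4, 0.711 and 213 CPM against 0.232, 141, 19.9 and 469 (-2.27 ± 0.24, adjusted p = 3.37e-09; -3.23 without the library with both cytokines). The neutrophil chemokine Cxcl1 stood at 0, 147, 0 and 46.7 CPM against 0, 277, 1.40 and 160 (-1.47 ± 0.23, adjusted p = 3.58e-05; -2.29 without the IL-1β library, and not called with DESeq2, adjusted p = 0.286). Hamp, the iron hormone hepcidin, fell by 1.76, Fabp5, a fatty acid carrier, by 1.24 and Erh by 1.07. Hamp stood at 0, 88.35, 0 and 33.3 CPM against 0.541, 186.5, 0.427 and 175, so its fall comes from the libraries with IL-1β. It could not be tested with either of those libraries left out. Where a level was 0 in a library, its fold change depends on the prior count of the fit.

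No gene of the stress lists was called higher in the main fit, over all insulin-led barcodes above 12% with TMM factors. No gene of the unfolded protein and integrated stress response list was called by edgeR (0 of 27, median -0.00). Above 25% mitochondrial UMIs 6 were lower (beside 16.9% of all genes), and without TMM 2 were higher (beside 15.9%). Summed in CPM, the list stood at 8511, 11918, 9945 and 10229 CPM at 8 to 12% mitochondrial UMIs and at 11104, 18499, 12442 and 14501 CPM at 25 to 40%, higher in all 4 libraries. Above 60% it was at 5693, 15195, 9445 and 11367 CPM, below the 8 to 12% range in the untreated and IFN-γ libraries. These sums were not tested. The chaperone Hspa5 (BiP), which reports stress of the endoplasmic reticulum, stood at 1483, 2185, 1491 and 1980 CPM against 952, 1775, 1373 and 1530 (0.12 ± 0.17, adjusted p = 0.698). Calr, Hsp90b1 and Pdia3 had log2 fold changes of 0.17, 0.15 and 0.00. Of these, the values in CPM were higher in high-mitochondrial barcodes in all 4 libraries, and those of the fit were not distinguishable from 0. Among 20 immediate early genes 0 rose and Junb, named here after its value was seen, fell (5%, beside 8.10% of all genes; 2 higher and 0 lower without TMM). Of the 20, 0 were called without the IL-1β library, without that with both cytokines, or with at most 4000 genes per barcode. Their sum was 1228, 1654, 1572 and 1812 CPM at 8 to 12% and 2963, 1899, 2400 and 1772 CPM above 60%, higher in 3 libraries and lower with both cytokines. At 25 to 40% it was 1259, 1342, 1596 and 1363 CPM, a little higher in the untreated and IFN-γ libraries and lower in those with IL-1β. Above 60% the IL-1β value rests on 19 insulin-led barcodes with 8424 UMIs. Jun stood at 235, 327, 354 and 473 CPM against 139, 222, 245 and 364 (0.32 ± 0.15, adjusted p = 0.139; 0.56, adjusted p = 0.0066 without TMM), and Atf3 at 0, 6.69, 3.56 and 16.7 against 0.876, 7.20, 4.33 and 33.8.

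Of 17 heat shock genes 0 rose and 3 fell (17.6%, beside 8.10% of all genes), namely the mitochondrial chaperonins Hspe1 (-0.60 ± 0.15, adjusted p = 0.00624) and Hspd1 and the small chaperone Hspb1 (-0.65 ± 0.22, adjusted p = 0.0348). The fall of Hspb1 rests on the IFN-γ library (12.8 against 39.2 CPM), without which it was -0.16 (adjusted p = 0.728), its CPM was higher in 2 libraries, and it was not called with DESeq2 (adjusted p = 0.197) or above 25% mitochondrial UMIs (0.03, adjusted p = 0.969). Without TMM the fold changes of Hspe1 and Hspb1 were still negative (-0.37 and -0.43) but not called, and 3 other heat shock genes were higher (beside 15.9% of all genes). Without the library with both cytokines 0 of 17 were called (beside 0.854% higher and 0.614% lower of all genes). Above 25% mitochondrial UMIs 3 were higher and 7 lower (beside 10.9% and 16.9% of all genes). Hspa1a, the inducible Hsp70, stood at 90.7, 438, 138 and 670 CPM against 57.5, 277, 199 and 294 (0.26 ± 0.17, adjusted p = 0.313; 0.50, adjusted p = 0.0432 without TMM). Its CPM was higher in 3 libraries and lower with IFN-γ, without which it was called higher (0.59, adjusted p = 0.0265), and at 12 to 25% it was at -0.34 (adjusted p = 0.108). Above 25% it was called higher (1.38, adjusted p = 2.77e-05), whereas Hspa8, its constitutive relative, was lower there (-1.55, adjusted p = 0.000174). Hspa1a and Hspa1b are near-identical copies, so reads assigned to each are uncertain.

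Of 39 genes of the BCL2 family and caspases 1 was higher (2.56%, beside 6.46% of all genes), namely Birc2, an inhibitor of apoptosis, and 3 were lower (7.69%, beside 8.10%), namely Casp1, the inflammasome caspase, Bnip3, a mitophagy receptor, and Cycs, cytochrome c. Casp1 stood at 0, 0, 0.711 and 6.67 CPM against 0.283, 6.03, 2.62 and 8.74. Its call was lost without the untreated, IL-1β or IFN-γ library (adjusted p = 0.0567, 0.26 and 0.0907). Above 25% mitochondrial UMIs 1 was higher and 8 of 37 were lower (beside 10.9% and 16.9% of all genes). Without the library with both cytokines 0 were called (beside 0.854% higher and 0.614% lower of all genes). Bnip3 stood at 48.3, 250, 140 and 79.99 CPM against 126, 225, 162 and 153 (-0.74 ± 0.17, adjusted p = 0.00317; -0.40, adjusted p = 0.039 without the untreated library). The proapoptotic Bax stood at 102, 132, 134 and 110 CPM against 132, 128, 129 and 135 (-0.35 ± 0.15, adjusted p = 0.111). Of 18 p53 targets 0 rose and 3 fell (16.7%, beside 8.10% of all genes; 6 above 25% mitochondrial UMIs and 0 without the library with both cytokines), among them Gadd45a, a growth arrest gene (-0.80 ± 0.18, adjusted p = 0.00203), while Mdm2 was at -0.00 ± 0.16. Of 29 antioxidant genes 12 were lower (41.4%, beside 8.10% of all genes) and 0 higher, with a median of -0.40 (-0.18 and 5 lower without TMM). Without the library with both cytokines 2 of the 29 were lower. Gpx3, a secreted glutathione peroxidase, stood at 11.1, 5.35, 6.40 and 6.67 CPM against 25.5, 17.4, 19.8 and 33.6 (-1.73 ± 0.25, adjusted p = 6.12e-06; -0.90, adjusted p = 0.0345 with at most 4000 genes per barcode, and -0.56 over all classes). Fth1, the ferritin heavy chain, fell by 0.54, a call that was lost with any 1 library left out (-0.67 to -0.35), and Ftl1 did not pass the test (-0.44, adjusted p = 0.105; 0.0496 with DESeq2).

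Of the β-cell identity list 2 of 23 rose (8.70%, beside 6.46% of all genes) and 0 fell. Without TMM 7 were higher (beside 15.9% of all genes). Above 25% mitochondrial UMIs 4 were higher and 5 lower (beside 10.9% and 16.9% of all genes). Without the library with both cytokines 0 were called (beside 0.854% higher and 0.614% lower of all genes). Abcc8, the sulfonylurea receptor of the potassium channel that couples ATP to insulin secretion, stood at 788, 502, 418 and 670 CPM against 340, 302, 296 and 292 (0.67 ± 0.16, adjusted p = 0.003). Mafa, a transcription factor of mature β-cells, stood at 466, 96.4, 469 and 76.7 CPM against 637, 71.9, 494 and 53.9 (-0.20 ± 0.17, adjusted p = 0.451), and was thus low in both sets in the libraries with IL-1β. Of 25 secretory granule genes 1 rose (4%) and 5 fell (20%, beside 8.10% of all genes), 4 of the latter being non-insulin hormones, of which Sst, Gcg and Ppy entered the class rule. Without the untreated library 0 rose and 9 fell, and without that with both cytokines 0 and 3. Ins2 (-0.39 ± 0.36), Ins1 (-0.63 ± 0.30), Iapp (-0.54 ± 0.28) and Chga (-0.17 ± 0.20) did not pass the test. With DESeq2 Ins1 and Iapp were called lower (-0.60 and -0.50, adjusted p = 0.000741 and 0.00245), as was Ins1 by edgeR without the untreated library (-0.71, adjusted p = 0.0275). Ins1 and Ins2 entered the class rule too, so their values are a description. Of 15 glycolysis genes 1 rose (6.67%) and 5 fell (33.3%, beside 8.10% of all genes; 1 and 2 without TMM, 0 and 0 without the library with both cytokines), including Gapdh (-0.60 ± 0.17, adjusted p = 0.0135) and Pgk1 (-0.74 ± 0.17, adjusted p = 0.00243). Without the untreated library these were -0.36 (adjusted p = 0.0988, no longer called) and -0.44 (adjusted p = 0.0207).

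The cytokine response was present in high-mitochondrial insulin-led barcodes of the treated libraries. Nos2, which encodes inducible nitric oxide synthase, stood at 0, 118, 0 and 683 CPM (205 UMIs in the last), against 0.0258, 144, 2.19 and 673 in the other insulin-led barcodes. The chemokine Cxcl10 stood at 0, 46.9, 51.2 and 2730 CPM against 2.19, 65.5, 81.8 and 2772, and the GTPase Gbp2 at 0.653, 300, 1000 and 2037 against 1.67, 301, 882 and 1900. Each of these genes was highest with both cytokines in both sets. With both cytokines, the level in high-mitochondrial barcodes was 102% of that in the others for Nos2 (95% interval of the ratio of counts 88.0 to 117), 98.5% for Cxcl10 (91.8 to 106) and 107% for Gbp2 (98.8 to 116). These percentages are per non-mitochondrial UMI and depend on that scaling: with totals scaled by the TMM factors of the fit they were 76.3% (66.1 to 87.6), 74.01% (68.99 to 79.3) and 80.6% (74.2 to 87.3).

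Other response genes also differed in level between the sets. With both cytokines, Sod2, the mitochondrial superoxide dismutase, was at 60.2% of it (51.7 to 69.7), Defb1, a defensin, at 71.8% (62.0 to 82.8) and Ccl2 at 45.5% (35.0 to 58.2). The transcription factor Irf1 was at 147% (124 to 172) and Icam1, an adhesion molecule, at 134% (115 to 156). Defb1 was at 173% with IFN-γ alone (145 to 205). With IL-1β alone it was at 108% (100.1 to 115), Icam1 at 79.6% (63.4 to 98.9), Irf1 at 95.9% (64.4 to 138), Sod2 at 84.3% (77.9 to 91.0) and Ccl2 at 15.2% (8.68 to 24.8). Sod2 and Ccl2 lay below the other barcodes in both libraries, also with totals scaled by TMM factors (74.1% and 13.4% with IL-1β, 45.2% and 34.2% with both). With that scaling Defb1 was at 94.5% with IL-1β (88.01 to 101) and 53.99% with both, and with both cytokines Icam1 was at 100.7% (86.1 to 117) and Irf1 at 110% (93.5 to 129). The excess of Defb1 with IL-1β and those of Icam1 and Irf1 with both thus depend on the scaling. With IFN-γ alone Irf1 was at 141%, and at 123% (111 to 136) with TMM scaling. Defb1 was at 151% (126 to 179) with TMM scaling there, Sod2 at 71.5% (59.7 to 85.0) and Cxcl10 at 54.6% (42.5 to 69.2). In the fit over 4 libraries Sod2 fell (-0.79 ± 0.17, adjusted p = 0.00129), a call that was lost without the library with both cytokines (-0.68, adjusted p = 0.0735). Defb1, Irf1, Icam1, Nos2 and Gbp2 did not pass the test over 4 libraries (adjusted p = 0.469, 0.6, 0.254, 0.102 and 0.512). In the library with both cytokines, above 25% mitochondrial UMIs and per non-mitochondrial UMI, Nos2 was at 77.2% of the level of the other barcodes (52.1 to 110), Cxcl10 at 58.7% (47.5 to 71.9), Gbp2 at 54.7% (41.7 to 70.4) and Sod2 at 22.6% (12.03 to 38.6). At 12 to 25% in the same library Cxcl10 was at 108% (100.2 to 116) and Gbp2 at 120% (110 to 130).

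**Figure D5:**
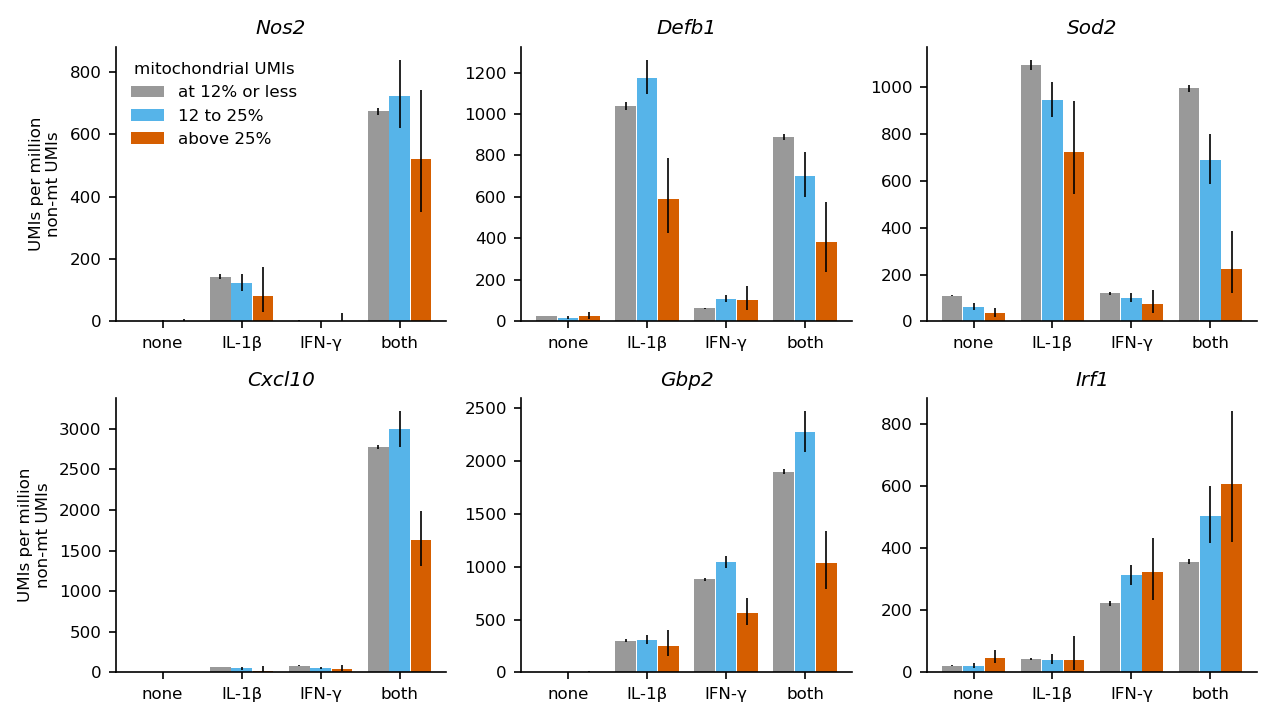
Levels of 6 cytokine-response genes in insulin-led barcodes at 12% mitochondrial UMIs or less, at 12 to 25% and above 25%, in CPM of non-mitochondrial UMIs for each library, with exact 95% Poisson intervals that cover counting error only. With both cytokines Sod2 falls across the 3 sets, while Irf1, in CPM, lies above the barcodes at 12% or less in both high-mitochondrial sets (110% with totals scaled by TMM factors over all barcodes above 12%, interval 93.5 to 129).

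Summed over the lists, the IL-1β response in high-mitochondrial barcodes was 98.0% of that in the others with IL-1β (96.1 to 100.02) and 93.2% with both (90.2 to 96.3), and the IFN-γ response was 116% with IFN-γ (114 to 118) and 127% with both (124 to 131). With totals scaled by TMM factors these were 86.2% (84.5 to 87.9) and 70.03% (67.8 to 72.4) for IL-1β, and 101% (99.8 to 103) and 95.7% (93.4 to 98.1) for IFN-γ, so the excess of the IFN-γ list is not seen with that scaling. In the test between the sets, 28 IL-1β response genes gave 0 higher and 7 lower (25%, beside 8.10% of all genes; median -0.16; 3 higher, 4 lower and a median of 0.11 without TMM; 1 lower of 24 without the library with both cytokines), and 41 IFN-γ response genes gave 3 higher and 6 lower (7.32% and 14.6%, beside 6.46% and 8.10% of all genes; median -0.10; 7 higher, 1 lower and a median of 0.15 without TMM; 0 called without the library with both cytokines). Those that fell included Isg15, a ubiquitin-like protein (-1.15 ± 0.25, adjusted p = 0.00163), and Cxcl10 (-0.69 ± 0.21, adjusted p = 0.0187), and Nlrc5, the activator of MHC class I genes, rose (0.78 ± 0.25, adjusted p = 0.0254). Nlrc5 was at 1.19 without the IFN-γ library, and its call was lost without that with both cytokines (0.62, adjusted p = 0.266), with at least 2000 UMIs per barcode (0.45, 0.307), at 12 to 25% (0.45, 0.308) and with a hormone cut of 10% (0.60, 0.129). The call of Cxcl10 was lost with DESeq2 (adjusted p = 0.33), without TMM (0.161) and without any 1 treated library (0.0584 to 0.16). All treated comparisons share the untreated library. When the contrast between the sets was allowed to differ with a cytokine, 2 of 11207 genes (0.0178%) differed with IL-1β and 16 (0.143%) with IFN-γ.

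Counted by barcode, fewer high-mitochondrial barcodes showed a response transcript, and depth moved with that count. With both cytokines, 33.6% of 119 high-mitochondrial insulin-led barcodes (interval 25.2 to 42.8) and 73.0% of 1428 others had a Nos2 UMI, at medians of 971 and 12115 non-mitochondrial UMIs. Thinned to 2000 UMIs each, which left out 80 and 14 barcodes, the shares were 53.8% (37.2 to 69.9) and 49.9% (47.2 to 52.5). For Cxcl10 the shares were 54.6% and 84.5% before and 76.9% and 73.6% after thinning, and for Gbp2 49.6% and 91.5% before and 84.6% and 82.5% after. After thinning, the intervals of the 2 sets overlapped for the 3 genes, but only the 39 deeper of the 119 high-mitochondrial barcodes entered, and their median of detected genes was 944 against 857.5 in the others. Free RNA was looked for in macrophage and endothelial barcodes of this library that were not high-mitochondrial. A Nos2 UMI was in 0 of 31 macrophage barcodes, at a median of 9126 UMIs, and in 9 of 29 endothelial barcodes. The median insulin share was 0.12% in these macrophage barcodes and 2.24% in unassigned high-mitochondrial barcodes, at a median of 488 UMIs. Barcodes this deep cannot give the part of free RNA in shallow high-mitochondrial barcodes, which was not tested. Cxcl10 and Gbp2 UMIs were in most of the barcodes of both classes in this library, so these classes give no background for them.

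Glucagon-led and somatostatin-led high-mitochondrial barcodes, 74 and 15 in all, gave few calls by edgeR. In glucagon-led barcodes 3 of 7543 genes were higher and 6 lower (0.119% in all, 647 at an unadjusted p under 0.05), and in somatostatin-led barcodes 2 of 2691 were higher and 1 lower (0.111%, 198 unadjusted). The higher genes in glucagon-led barcodes were Lcn2, Prss2 and Ctrb1, of which the last 2 are acinar enzymes, and Sst was lower (-4.96 ± 0.37), all named after their values were seen. Prss2 stood at 0, 217, 45.6 and 0 CPM against 12.1, 3.45, 24.6 and 14.3, so its call rests on the IL-1β and IFN-γ libraries. The medians of the ribosomal protein, respiratory chain and nuclear-retained lists in glucagon-led barcodes were -0.48, -0.39 and 0.54, against -0.10 for all genes tested, so that they lay on the same side as in insulin-led barcodes. Whether the contrast differs between the classes was not tested.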

How the data were processed

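The deposited matrices hold raw UMI counts per gene and barcode, made by the authors with Cell Ranger on mm10 per the submitters' processing notes (the matrix headers give software version 3.0.0); for aligner settings and annotation, nothing was found in the sources. The labels name version 2 of the 10x 3′ kit and the study's methods version 3. The authors removed cells above a mitochondrial limit before clustering. The barcodes analysed here were chosen by applying that limit again to the deposited counts. Fewer barcodes passed the paper's limits on genes and mitochondrial share here than the number of cells the paper kept. The barcodes analysed here are therefore not shown to be the same as those the authors removed. Sums were made in Python 3.11.15 using numpy 2.4.6, pandas 2.3.3 and scipy 1.17.1. A second hormone of at least 20% of hormone UMIs made a barcode mixed, and barcodes below the hormone cut were classed by at least 3 markers of a single list. No doublet caller was run, and no upper limit on genes was set (14 high-mitochondrial and 1556 other barcodes exceeded 4000).

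UMIs were summed into 8 sums (2 sets in 4 libraries), filtered with filterByExpr, scaled by TMM and tested with edgeR 4.0.16 (quasi-likelihood, library as block, 3 residual degrees of freedom, R 4.3.3), with Benjamini-Hochberg adjustment. DESeq2 1.42.0 was an alternative. On simulated counts of 11115 genes with 200 changed, 97% of 2-fold and 100% of 4-fold changes were recovered, with 3.9% false calls. Both simulated sets were drawn from the profile of the other barcodes with a common dispersion of 0.0185 and as many rises as falls. The simulation held no shift of scaling and no contrast that differed between libraries. Its false calls therefore do not measure those of the real comparison. Of 31053 gene identifiers, 31011 matched GENCODE M21 (GRCm38), from which lengths and positions came. Genes named were the 13 mt- genes, the 10 largest changes per direction among called genes with 1 direction in all libraries and a mean of at least 20 CPM (without pseudogenes, Gm- and Rik-named genes), the 4 most abundant and 2 most changed tested genes of each of 15 lists, and 8 response genes; others are listed as members of a count, and some named by the rule are not reported here. The barcodes, lists and tests were chosen with earlier results of these data known.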

Additional observations from a re-analysis of the deposited data

Results flagged for a closer look

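The contrast between high-mitochondrial and other insulin-led barcodes was allowed to differ between libraries with and without a cytokine, and a test of that difference (edgeR, chosen after seeing the data) flagged the following genes. With IL-1β against without, 2 of 11207 genes passed (0.0178%): Tm4sf1 (log2 difference 6.58 ± 1.30 SE, adjusted p = 0.0208) and Sprr1a (-4.21 ± 0.68, adjusted p = 0.000442). Tm4sf1 stood at 0.653, 25.4, 0 and 0 CPM in the high-mitochondrial sums (untreated first, then IL-1β, IFN-γ and the combination), so its value comes from the IL-1β library.

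With IFN-γ against without, 16 genes passed (0.143%), most of them pancreatic acinar products. They were Try5 (-3.58), Reg1 (-4.19), Cpa1 (-3.58), Prss2 (-2.53), Ctrb1 (-2.33), Cela2a (-3.45), Cela3b (-2.15), Reg3b (-4.48), Sycn (-3.11), Ctrl (-3.30), Clps (-4.94), Pnliprp1 (-3.94), 2210010C04Rik (-3.17), Spp1 (-1.66), Tm4sf1 (-10.02) and, in the other direction, Sst (2.08). Try5 stood at 131, 2.68, 17.8 and 220 CPM in high-mitochondrial and at 7.16, 2.82, 61.2 and 66.2 CPM in other barcodes. It was thus higher in high-mitochondrial barcodes of the untreated library and that with both cytokines and lower with IFN-γ alone, and libraries sharing a cytokine did not move together. The part of free acinar RNA in these values was not tested.

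The share of barcodes with fewer than 200 genes, which no comparison used, was above that of the untreated library (12.02%, interval 10.96 to 13.1) in the IL-1β (14.7%) and IFN-γ (20.5%) libraries and below it with both cytokines (8.06%, 7.02 to 9.21), with 1 library each.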

How the results depend on the processing

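Shares of high-mitochondrial barcodes (untreated, IL-1β, IFN-γ, both) followed the limit: 25.7%, 17.8%, 21.1% and 13.1% at 10%, and 18.5%, 7.05%, 8.52% and 8.51% at 20%. With at least 500 genes they were 15.1%, 9.67%, 11.4% and 5.67%, and with at most 4000 genes 31.4% and 17.9% in the untreated and IFN-γ libraries. The mean log2 odds ratio of insulin-led barcodes turned positive at a hormone cut of 2% (0.72) and with at least 2000 non-mitochondrial UMIs (0.86), and was -0.99 at a cut of 10% and -0.52 at a 20% limit. The mean log2 ratio of non-mitochondrial UMIs was -4.04 to -1.91 under 3 alternatives. These UMIs entered the choice of the barcodes, so this is a description.

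Genes called higher and lower in insulin-led barcodes (724 and 908) were 1784 and 215 without TMM, 1111 and 1575 at a 20% limit, 323 and 497 with at least 2000 UMIs, 403 and 504 with DESeq2, and 0 and 0 without the library block (1224 at an unadjusted p under 0.05). Alternatives added after seeing the data gave 214 and 430 at 12 to 25%, 1186 and 1836 above 25%, and 1160 and 1668 over all classes. Leaving out each library gave 96 to 749 higher and 69 to 884 lower, the lowest without that with both cytokines; 94 and 69 of those calls were among the main ones. In glucagon-led barcodes the ranges were 0 to 6 higher and 2 to 12 lower (7 higher without TMM), and in somatostatin-led 0 to 2 higher and 0 to 2 lower (4 higher without TMM). Hspb1 reversed above 25% (0.027) and at a 20% limit (0.10), and Sst with at most 4000 genes (0.16). The causes were not tested.

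Response sums relative to other barcodes moved. The IL-1β list with IL-1β was 101% with at least 2000 UMIs, 92.2% without hormone genes and 95.6% at a 20% limit; with both cytokines it was 96.8%, 81.3% and 82.4%. The IFN-γ list with IFN-γ was 106% without hormone genes and 124% at a 20% limit; with both it was 124%, 111% and 143%. With totals scaled by TMM factors (added after seeing the data) the 4 sums were 86.2%, 70.03%, 101% and 95.7%. Thinned to 2000 UMIs, shares with a UMI went to 53.8% and 49.9% for Nos2, 76.9% and 73.6% for Cxcl10, and 84.6% and 82.5% for Gbp2 in high-mitochondrial and other barcodes. No paired analysis was possible because the labels give each group 1 library and no replicate numbers; the library block pairs the 2 sets within a library. Depth limits the sum of the library with both cytokines, which held 300020 UMIs.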

Other observations

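Barcodes with fewer than 200 detected genes were outside the comparisons. Of these 1805 barcodes 1796 had more than 12% mitochondrial UMIs. Their median mitochondrial share was 88.5% untreated, 91.5% after IL-1β, 90.6% after IFN-γ and 87.5% after the combination. They held medians of 860, 724, 967 and 806.5 mitochondrial UMIs and of 122, 67, 101 and 122 others (mitochondrial UMIs of the high-mitochondrial barcodes were 1221, 747.5, 1007.5 and 731). Their leading mitochondrial transcript was mt-Co3, at 24.5%, 24.5%, 24.5% and 22.6% of mitochondrial UMIs, and mt-Co1 was at 12.9%, 15.2%, 14.3% and 16.6%, below its share in both sets of barcodes with at least 200 genes in all 4 libraries. Median hormone shares of their non-mitochondrial UMIs were 24.2%, 7.55%, 15.7% and 9.39%.

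Unnamed gene models Gm42418, Gm26917 and Gm47283 were counted but not listed among the largest changes. Gm42418 stood at 5941, 1849, 2620 and 3230 CPM in high-mitochondrial and at 1680, 942, 1109 and 888 CPM in other insulin-led barcodes (log2 fold change 1.24 ± 0.19, adjusted p = 1.68e-05 by edgeR).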
